A study of Xenopus laevis with 15 samples.

Results

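Chromatin-modifying enzymes were examined in Xenobots, the small self-moving constructs that form when ectoderm (animal cap tissue) is cut from Xenopus laevis embryos and left to heal. The genes were chosen by name from the table of 42638 genes. They comprise the histone deacetylases (hdac) and sirtuins (sirt), the acetyltransferases (kat, ep300, crebbp), the lysine methyltransferases (kmt2, kmt5, ezh, ehmt, setd, dot1l), the lysine demethylases (kdm), the DNA methyltransferases (dnmt) and the TET dioxygenases (tet). The choice gave 101 genes, from 63 symbols, with 55 genes ending in .L and 46 in .S. Xenopus laevis is an allotetraploid, and these endings name the copies (homeologs) of a gene on its long and short chromosomes. The choice used gene names only. Of the 101 genes, 100 passed the filter on low counts. The gene left out, hdac9.L, had 0 to 8 reads per library.

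All embryos were wild type. The Xenobots were kept for 7 days at 14 °C, and 50 of them were pooled for a library. The 15 libraries form 5 groups of 3. Ctrl had met no stimulus. Both extract groups were given a homogenate of 3 blastula-stage embryos, at 10 µL per 14 mL of medium, and were collected immediately (0 h) or 4 h afterwards. The ATP groups received 250 µM ATP, from 10 µL of stock per 4 mL of medium, and were collected at the same 2 times. The dilution thus differed with the stimulus. No stimulus-free group was taken at 4 h, so the later groups differ from Ctrl in time as well as in stimulus. The labels do not say that the pools of a group came from separate clutches, so p-values measure only the spread between these pools, which may be technical.

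Histone tails carry acetyl and methyl groups that enzymes add and remove. Acetyltransferases open chromatin for transcription and deacetylases reverse this. Methylation of histone H3 at lysine 4, lysine 36 or lysine 79 goes with transcribed genes, whereas methylation of H3 lysine 9, H3 lysine 27 and H4 lysine 20 goes with repressed or compacted chromatin. Demethylases remove these methyl groups, DNMT1 copies DNA methylation after replication, and TET enzymes oxidise it. In many cell types these enzymes have been linked to lasting transcriptional states, including responses that outlive a stimulus. The series as a whole asks whether Xenobots keep a trace of a stimulus.

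Sequencing depth was 12583039 to 20325075 expected counts per library, of which ribosomal RNA took 20.1% to 43.3% and the 101 enzymes 0.32% to 0.661%. The labelled epidermal identity was checked with marker genes. Itln1.L, a lectin of mucus-secreting goblet cells, lay at 3590 to 5770 CPM. CPM, the usual depth-normalised read count, gives a gene's reads relative to the library total, here scaled between libraries by TMM factors. The ionocyte regulator foxi1.L lay at 45.6 to 62.6 CPM, the cilia regulator foxj1.L at 15.3 to 32.2 CPM and the basal cell regulator tp63.L at 53.2 to 81.1 CPM. At least 1 CPM on average was reached by 11 of 14 goblet and outer epidermis genes and 21 of 23 multiciliated cell genes. It was also reached by 13 of 13 ionocyte and 10 of 10 basal epidermis genes. In the goblet list itln2.L, otog.L and otogl.L stayed at or below 0.517 CPM, and in the multiciliated list both copies of mcidas at or below 0.934 CPM. Of 16 neuronal marker genes, 3 averaged at least 1 CPM: syt1.L at 66.1 to 86.1 CPM, gap43.S at 1.65 to 3.67 CPM and tubb2b.L at 1.75 to 3.42 CPM. The other 13, which include elavl3.L, snap25 and stmn2, stayed at or below 0.897 CPM. The 15 muscle and mesoderm marker genes in the table, of which 6 averaged at least 1 CPM, summed to between 8.22 and 241 CPM across libraries, with myod1 at or below 0.677 CPM. In bulk libraries, fewer cells of a type and less RNA per cell cannot be told apart.

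Nearly the whole enzyme set was present when levels were averaged over unstimulated and stimulated libraries. Of the 101 genes, 99 averaged at least 1 CPM and 70 at least 10 CPM over all libraries. The exceptions were both copies of hdac9. Reads were not divided by transcript length here, so levels are compared between samples and not between genes.

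Among the acetyltransferases, crebbp.S, which encodes the coactivator CBP, lay at 96.1, 86.1 and 115 CPM in the 3 Ctrl libraries. Its relative ep300.L, encoding p300, lay at 99.6, 83.3 and 112 CPM there. The 13 acetyltransferase genes had no member that passed the test in any comparison. Their summed level ran from 476 to 591 CPM in Ctrl, 542 to 596 CPM at extract 0 h, 459 to 639 CPM at extract 4 h, 435 to 559 CPM at ATP 0 h and 430 to 602 CPM at ATP 4 h. The ranges of all 5 groups overlapped.

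The zinc-dependent deacetylases and the sirtuins, which use NAD+, had close summed levels in all libraries, while some single genes varied widely. The summed level of the 16 hdac genes lay between 321 and 375 CPM in the 15 libraries, and that of the 11 sirtuin genes between 68.8 and 78.2 CPM. From the lowest to the highest library, hdac5.S varied 2.49-fold, sirt3.2.L 2.91-fold and the scarce hdac9.S 8.94-fold. Sirt3, sirt4 and sirt5 encode mitochondrial proteins in mammals and belong here by name only. The same holds for setd3, whose mammalian product methylates actin, and setd3.S lay between 18 and 21.8 CPM (median 20.3 CPM). Setd5.L, whose substrate is unsettled, ranged from 62.7 to 93.5 CPM (median 78.2 CPM). Hdac1.L, a catalytic subunit of several corepressor complexes, had 57.4, 67.8 and 53.3 CPM in Ctrl and 47.7 to 64.1 CPM elsewhere. Its values in all other groups overlapped with those of Ctrl. Hdac6.L, known in mammals as a tubulin deacetylase, lay between 47.4 and 67.3 CPM (median 56.7 CPM), sirt4.L between 20.3 and 25.9 CPM (median 23.1 CPM), and sirt7.L, a nucleolar deacetylase in mammals, between 5.94 and 9.56 CPM (median 7.75 CPM).

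The enzymes of repressive marks also had close sums, and their abundant members varied little. Ezh2.L, a catalytic subunit of Polycomb repressive complex 2, had 40.6, 49.1 and 39.0 CPM in Ctrl. Its group means lay within 1.03-fold of each other, the Ctrl mean being 42.9 ± 5.44 CPM (SD, n = 3). Ezh2.S lay between 2.62 and 5.16 CPM, ezh1.L between 1.83 and 3.6 CPM, and ehmt1.L between 29.7 and 36.4 CPM. The scarcer ezh genes varied 1.96-fold to 2.1-fold between libraries. The 13 genes of this class, which also holds the H3 lysine 9 enzymes ehmt1 and ehmt2 and the H4 lysine 20 enzymes kmt5a, kmt5b and kmt5c, summed to between 213 and 244 CPM in the 15 libraries. Both copies of dnmt1 were the only DNA methyltransferase genes that the names matched. Dnmt1.S had 26.6, 31.1 and 27.5 CPM in Ctrl, and all 15 libraries lay between 25 and 31.1 CPM. Dnmt1.L lay between 17.7 and 24.1 CPM. At extract 4 h its values of 18.2, 18.7 and 17.7 CPM were below all Ctrl values of 20, 24.1 and 19 CPM, with a log2 fold change of -0.21 (SE 0.115, edgeR quasi-likelihood adjusted p = 0.677).

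Most enzymes of active marks, and the demethylase gene kdm6b, varied between libraries at high read counts and in the same libraries. The 16 genes grouped here as activating are the H3 lysine 4 enzymes kmt2a, kmt2c, kmt2d, kmt2e, setd1a, setd1b and setd7 (KMT2E itself has little or no catalytic activity in mammals), the H3 lysine 36 enzyme setd2 and the H3 lysine 79 enzyme dot1l. Kmt2c.L had 250, 213 and 302 CPM in Ctrl, 298, 304 and 309 CPM at extract 0 h, and 388, 380 and 232 CPM at extract 4 h. It had 277, 223 and 214 CPM at ATP 0 h and 410, 214 and 255 CPM at ATP 4 h. The spread within the 4 h groups was thus as wide as the range over all groups, with replicates 1 and 2 of extract 4 h and replicate 1 of ATP 4 h on top.

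**Figure D1:**
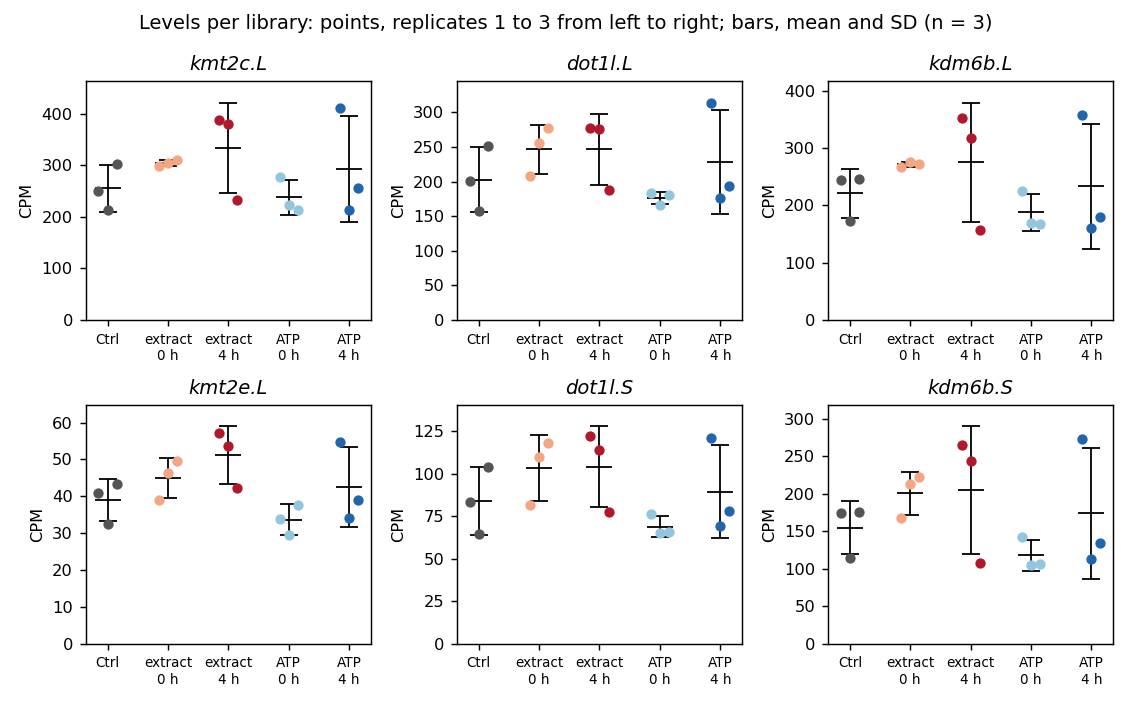
CPM (vertical axes, from 0) of kmt2c.L, dot1l.L, kdm6b.L, kmt2e.L, dot1l.S and kdm6b.S in each library, by group. Points are the 3 replicates in number order and bars the mean and SD. In each panel replicate 1 of ATP 4 h stands above the other 2 ATP 4 h libraries, and replicate 3 of extract 4 h below the other 2 of its group; kdm6b.S at ATP 4 h, for example, had 274, 113 and 134 CPM.

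Kdm6b, an H3 lysine 27 demethylase known in mammals as an inducible gene of stress and inflammation, showed the same pattern with the widest spread of the abundant members. Kdm6b.L had 245, 172 and 246 CPM in Ctrl, 267, 276 and 273 CPM at extract 0 h, 352, 318 and 157 CPM at extract 4 h, 225, 170 and 168 CPM at ATP 0 h, and 358, 160 and 179 CPM at ATP 4 h. Its 3 values at extract 0 h lay above all Ctrl values, yet the difference was small beside the spread of the other groups (log2 fold change 0.30, SE 0.308, edgeR quasi-likelihood adjusted p = 0.9997). The coefficient of variation within groups was 30.1% for kdm6b.L and 34.6% for kdm6b.S, the largest among the 70 members at 10 CPM or more. At the other end of that range stood the H3 lysine 9 demethylase gene kdm3a.L, at 4.12%, with 131 to 150 CPM in all libraries. The 20 demethylase genes together summed to 1210, 1080 and 1220 CPM in Ctrl, 1260, 1270 and 1250 CPM at extract 0 h, and 1190, 1050 and 1060 CPM at ATP 0 h. The extract 0 h sums lay above all values of both other groups, and no demethylase passed the test. Single genes went both ways. Of the 20, 11 were higher at extract 0 h than in Ctrl (median log2 fold change 0.05) and 12 higher than at ATP 0 h (median 0.02). The sums include both copies of kdm6b, and sums without them were not taken. At 4 h the sums were 1420, 1340 and 1030 CPM after extract and 1520, 1040 and 1110 CPM after ATP, spanning the range of the other groups.

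The shared direction of these genes was followed in a principal component analysis of the 100 enzymes. The first component held 48.3% of their variance, against 23% for all 24052 genes tested, and 74 of the 100 genes had a positive loading on it. The 2 sets differ in size and in read depth, with 70 of the 100 enzymes and 10989 of the 24052 genes at 10 CPM or more. The enzymes also include both copies of 37 pairs. The 2 percentages therefore do not measure whether the enzymes vary together more than other genes. Kdm6b.S (0.301) and kdm6b.L (0.247) had the largest loadings, and all 16 activating methyltransferases were positive. Setd7.L had the smallest loading of the 16, at 0.0194. The component was not confined to these genes. Hdac9.S (0.214) and hdac5.S (0.178) were high on it. Genes were not scaled to equal variance, so a loading also grows with a gene's own spread. The scarce hdac9.S lay 0.71 and 0.54 above its mean log2 CPM in replicate 2 of ATP 0 h and of ATP 4 h, which scored low. Both copies of tet2 (0.124 and 0.11), ep300 (0.118 and 0.121), crebbp (0.118 and 0.117) and kat6a (0.105 and 0.0892) were also positive. The largest negative loadings were those of sirt5.L (-0.129) and sirt6.L (-0.106), and the negative side also held hdac1.L and hdac2.L. Highest on the component were ATP 4 h replicate 1 (2.71), extract 4 h replicate 1 (2.48) and extract 4 h replicate 2 (2.25). Lowest were Ctrl replicate 2 (-1.94), ATP 0 h replicates 3 (-1.9) and 2 (-1.82), extract 4 h replicate 3 (-1.61) and ATP 4 h replicate 2 (-1.58). Libraries of the same group thus stood at opposite ends.

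**Figure D2:**
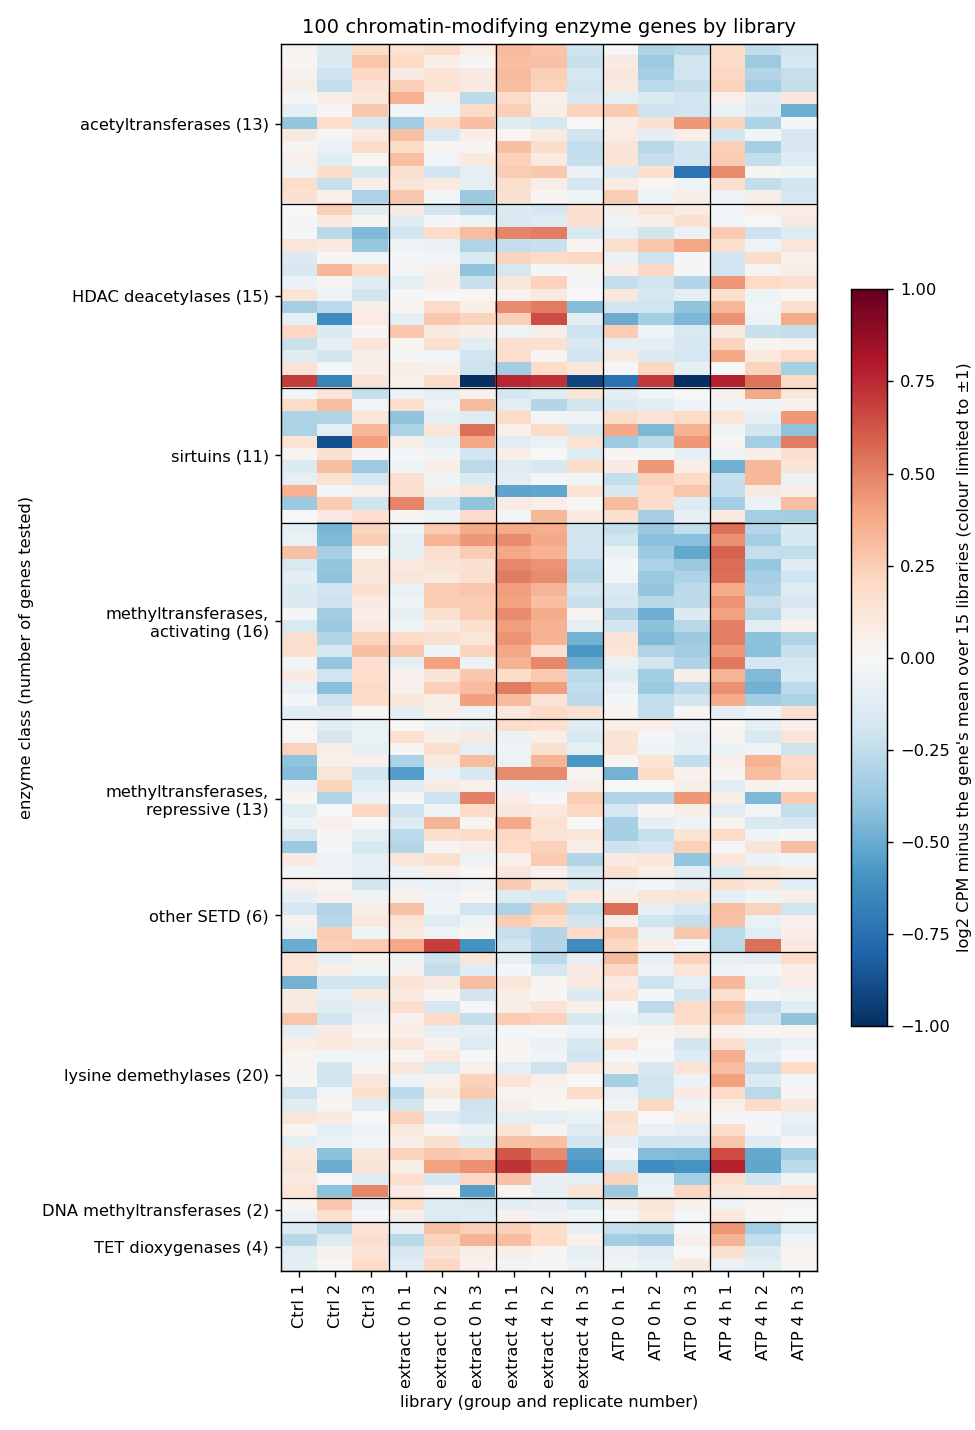
Each row is one of the 100 enzyme genes that passed the filter, ordered by class, and each column a library. The colour is log2 CPM minus the gene's mean over the 15 libraries. Blocks of 1 colour run down single columns in the activating methyltransferases, where all 16 genes of extract 4 h replicates 1 and 2 lie above their mean and none of Ctrl replicate 2, ATP 0 h replicate 2 and ATP 4 h replicate 2 does, while the columns of most other classes are mixed.

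Technical measures of these libraries are given beside the pattern. Ribosomal RNA took 21%, 20.1% and 28.2% of the reads in the 3 libraries highest on the component, and 26.4%, 43.3%, 35.2%, 39.2% and 31.7% in the 5 lowest. The 2 ranges overlapped only through Ctrl replicate 2, and the other low-end libraries had larger shares than all 3 at the high end. In the same order, the TMM factors were 1.15, 1.16 and 1.04 in the highest and 1.1, 0.787, 0.947, 0.873 and 1.03 in the lowest. Replicate 2 of extract 0 h had a ribosomal share of 21.9% and a score of 0.991, and replicate 3 of ATP 4 h a share of 25.5% and a score of -0.813. The part of ribosomal RNA or RNA quality in this shared variation was not tested. Groups accounted for a median of 28.7% of the members' spread and of 28.9% for all genes, where degrees of freedom alone would give 28.6%.

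Differences were tested with edgeR's quasi-likelihood test over all genes, with Benjamini-Hochberg adjustment, and an adjusted p under 0.05 was taken as a change. None of the 100 enzymes passed in any of the 10 comparisons. The extract 0 h comparison with Ctrl called 0% of all genes at this threshold, as did extract 4 h and ATP 0 h, while ATP 4 h called 0.00416%. At an unadjusted p under 0.05, 1 enzyme was counted at extract 0 h (4.53% of all genes), 6 at extract 4 h (7.27%), 1 at ATP 0 h (3.58%) and 4 at ATP 4 h (3.29%). With 100 enzymes tested each count is also a percentage, and all 4 are near or below the background. By direction, extract 0 h had 1 enzyme higher (1.29% of all genes) and 0 lower (3.24%), and extract 4 h had 5 higher (3.7%) and 1 lower (3.57%). ATP 0 h had 1 higher (1.59%) and 0 lower (1.99%), and ATP 4 h had 4 higher (1.65%) and 0 lower (1.63%). The count at extract 4 h was 19 without extract 4 h replicate 3, 0 without replicate 2, 2 without replicate 1, 1 without Ctrl replicate 1 and 3 without Ctrl replicate 2. The share of all genes was not counted in fits with a library left out, here or below. Such counts show only how far they depend on single libraries. The 4 comparisons use the same Ctrl libraries. DESeq2 and limma-voom also called 0 enzymes.

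The 95% confidence intervals limit what could have been missed, as far as a model without pairing by replicate number can. They lay within a 2-fold change either way for 98 of the 100 enzymes at extract 0 h against Ctrl, 96 at extract 4 h, 98 at ATP 0 h and 98 at ATP 4 h. The members' log2 fold changes ran from -0.36 to 0.46 at extract 0 h, -0.43 to 0.55 at extract 4 h, -0.39 to 0.34 at ATP 0 h and -0.29 to 0.50 at ATP 4 h. Their medians were 0.05, 0.08, -0.04 and 0.06, beside medians over all genes of 0.01, 0, 0 and 0. Fitted values were above Ctrl for 66, 67, 35 and 61 of the 100 enzymes, beside 52.9%, 50.1%, 50.6% and 50.6% of all genes.

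**Figure D3:**
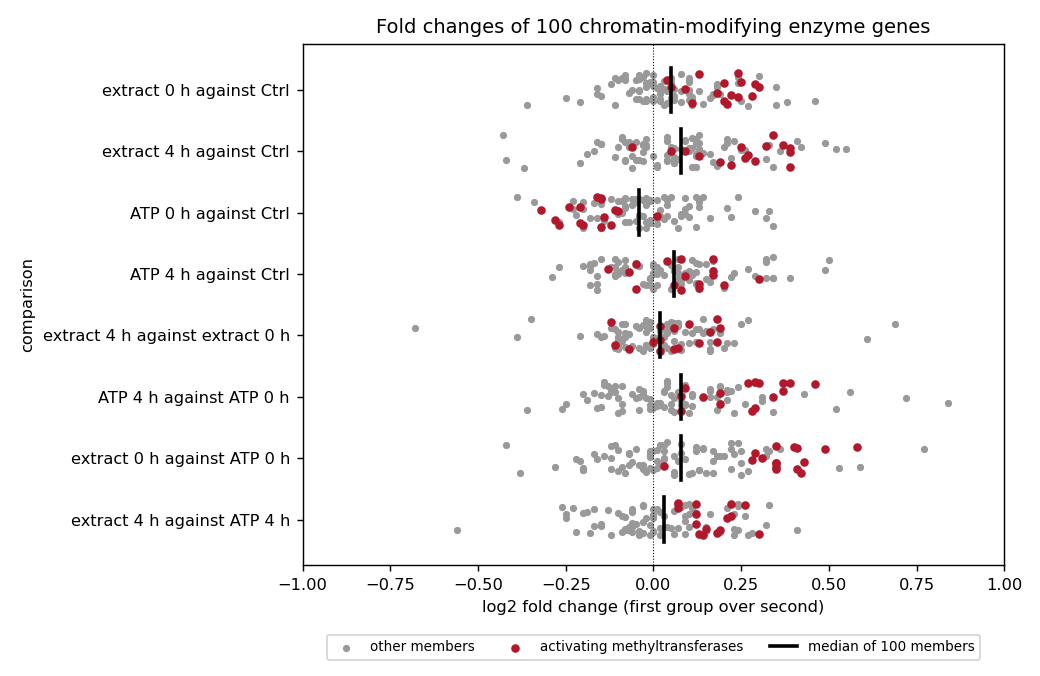
Log2 fold changes of the 100 enzymes in 8 comparisons (horizontal axis; the first group named is the numerator). Red points are the 16 activating methyltransferases, grey points the other 84 genes, spread vertically for legibility, and black bars the median of all 100. In extract 0 h against ATP 0 h all 16 red points lie to the right of 0, with a median of 0.35, and no point in any comparison passed the test.

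The member with the smallest p at extract 0 h was kdm1b.L, which encodes a flavin-dependent H3 lysine 4 demethylase. It had 2.75, 3.40 and 3.37 CPM in Ctrl and 4.24, 4.12 and 4.79 CPM at extract 0 h. The 2 groups did not overlap, with a log2 fold change of 0.46 (SE 0.172, 95% interval 0.09 to 0.83, unadjusted p = 0.017), but the edgeR quasi-likelihood adjusted p was 0.936. Its values of 4.19, 3.93 and 4.13 CPM at extract 4 h and 4.87, 3.59 and 4.04 CPM at ATP 4 h were also all above Ctrl, and those at ATP 0 h, 4.09, 3.31 and 3.58 CPM, overlapped with it. In all, 3 enzymes lay wholly above Ctrl at extract 0 h (3.98% of all genes did) and 1 wholly below (3.7%).

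At extract 4 h the smallest p belonged to hdac10.L, a class IIb deacetylase that acts on polyamines in mammals. It had 11.6, 9.75 and 8.65 CPM in Ctrl and 16.7, 16.8 and 10.6 CPM at extract 4 h. The third library of the extract group lay inside the Ctrl range, and the log2 fold change of 0.55 (SE 0.190) had an edgeR quasi-likelihood adjusted p of 0.644. Sirt1.S, a nuclear NAD+-dependent deacetylase, had 5.45, 5.90 and 4.65 CPM in Ctrl and 4.41, 3.88 and 4.18 CPM at extract 4 h. All 3 values were below Ctrl, with a log2 fold change of -0.37 (SE 0.149, adjusted p = 0.661 by the same test). Its values at extract 0 h, 5.38, 4.62 and 5.94 CPM, were also all above those at 4 h. At extract 4 h 5 enzymes lay wholly above Ctrl (6.05% of all genes) and 4 wholly below (5.68%).

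At ATP 0 h hdac2.L, a partner of hdac1 in corepressor complexes, had 12.2, 13.2 and 14.2 CPM against 11.9, 11.4 and 8.33 CPM in Ctrl. It lay wholly above Ctrl (log2 fold change 0.32, SE 0.143, edgeR quasi-likelihood adjusted p = 0.984). The cytoplasmic deacetylase gene sirt2.S had 6.56, 6.40 and 6.66 CPM at ATP 0 h and 4.65, 4.68 and 6.25 CPM in Ctrl. Its log2 fold change was 0.34 (SE 0.170), with the same adjusted p of 0.984. Enzymes wholly above Ctrl numbered 3 (5.4% of all genes) and those wholly below 4 (3.81%). The multiciliated cell markers summed to between 1920 and 2280 CPM at ATP 0 h and between 1630 and 1760 CPM in Ctrl. At extract 0 h their sums, 1800 to 1880 CPM, were also above Ctrl. The part of these markers in the enzyme values of either group was not tested.

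Class IIa deacetylases, which shuttle between nucleus and cytoplasm in response to calcium-dependent kinases in mammals, held the enzymes with the smallest p-values in both comparisons of ATP 4 h, with Ctrl and with ATP 0 h. They were singled out as a class after their values were known. Hdac4.L had 8.68, 9.28 and 8.33 CPM in Ctrl, 7.65, 7.86 and 7.39 CPM at ATP 0 h, and 12.38, 10.49 and 10.12 CPM at ATP 4 h. The 3 groups did not overlap: ATP 0 h lay below Ctrl and ATP 4 h above both. At extract 0 h it had 8.55, 9.55 and 7.78 CPM, and at extract 4 h 9.93, 10.7 and 8.98 CPM. Between ATP 4 h and ATP 0 h the log2 fold change was 0.52 (SE 0.126, 95% interval 0.25 to 0.79), with an unadjusted p of 0.000873 and an edgeR quasi-likelihood adjusted p of 0.396. Its other copy, hdac4.S, had 19.5, 16.1 and 17 CPM at ATP 0 h and 20.2, 17.5 and 18.3 CPM at ATP 4 h, which overlap.

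Hdac5.S, of the same class, had 2.26, 2.54 and 2.33 CPM at ATP 0 h and 4.48, 3.14 and 4.22 CPM at ATP 4 h. The groups did not overlap, and the log2 fold change was 0.72 (SE 0.244, 95% interval 0.20 to 1.24, edgeR quasi-likelihood adjusted p = 0.519). ATP 4 h did overlap with the other groups. As log2 CPM minus the gene's mean it had 0.45, -0.05 and 0.37, beside -0.1, -0.63 and 0.08 in Ctrl. On that scale extract 0 h had -0.1, 0.27 and 0.22, and extract 4 h 0.24, 0.65 and -0.1, which include the highest value. Another class IIa gene, hdac7.S, had 39.1, 33.3 and 32.5 CPM at ATP 0 h and 48.2, 39.4 and 42.2 CPM at ATP 4 h, with 33.7, 32.2 and 38.5 CPM in Ctrl. All 3 values at ATP 4 h were above those of both groups. Against Ctrl, enzymes wholly higher at ATP 4 h numbered 5 (3.8% of all genes) and wholly lower 2 (4.47%). For hdac7.S the log2 fold change between the ATP times was 0.31 (SE 0.124, adjusted p = 0.548 by the same test). Among the remaining class IIa genes, hdac5.L and hdac7.L were also wholly higher at ATP 4 h than at ATP 0 h. Between the ATP times 8 of the 100 enzymes were wholly higher, beside 6.48% of all genes. The scarce hdac9.S, like hdac4.S, overlapped between these times. Muscle and mesoderm markers summed to between 115 and 241 CPM at ATP 4 h, 8.73 and 80.2 CPM at ATP 0 h and 21 and 204 CPM in Ctrl. Their part in the class IIa values was not tested.

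**Figure D4:**
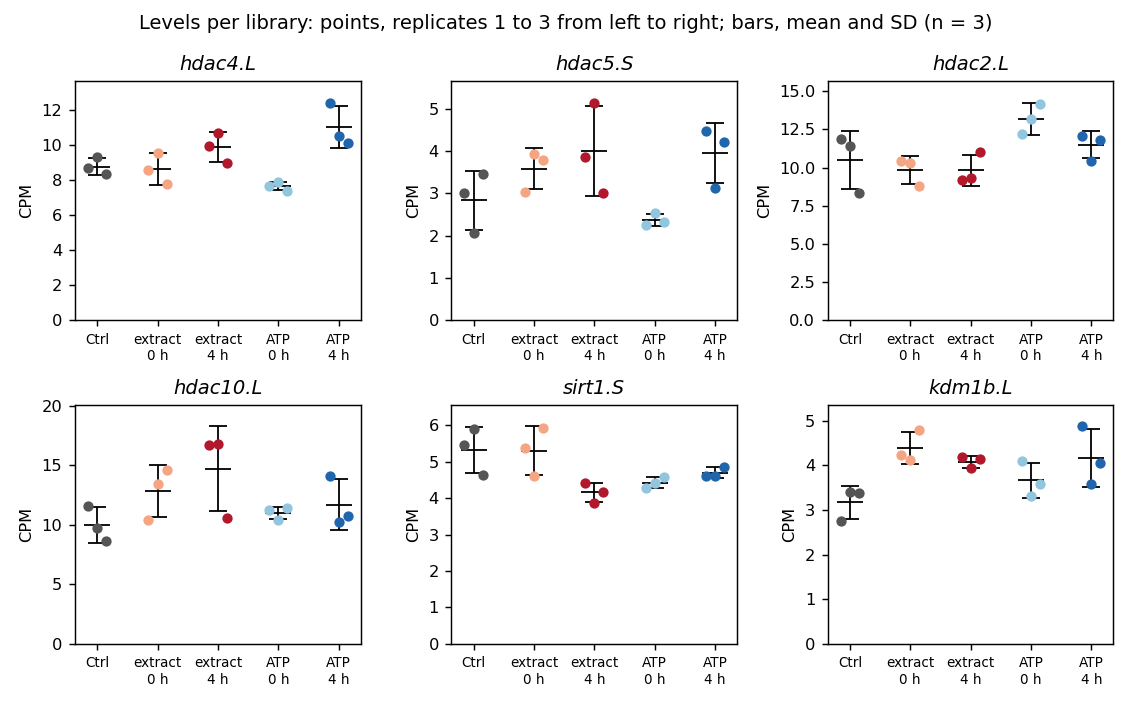
CPM (vertical axes, from 0) of hdac4.L, hdac5.S, hdac2.L, hdac10.L, sirt1.S and kdm1b.L in each library, by group, with points for the 3 replicates and bars for the mean and SD. The hdac4.L values at ATP 0 h (7.39 to 7.86 CPM) lie below those of Ctrl (8.33 to 9.28 CPM) and all 3 at ATP 4 h, from 10.1 CPM upwards, above them.

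Over time, the ATP 4 h against ATP 0 h comparison counted 4 enzymes at an unadjusted p under 0.05, all higher at 4 h, against 8.84% of all genes (4.51% higher and 4.32% lower, with 0.0125% past the adjusted threshold). Leaving out ATP 4 h replicate 1 gave 2, and leaving out replicate 2 gave 11, with the share of all genes not counted in either fit. Enzymes wholly above the earlier time numbered 8 (6.48% of all genes) and those wholly below 4 (7.82%). For extract, 2 enzymes were counted against 2.37% of all genes, 1 higher (1.31%) and 1 lower (1.05%), with 0% past the adjusted threshold. Of these, ezh1.S, an alternative catalytic subunit of Polycomb repressive complex 2, had 1.97, 2.80 and 2.62 CPM at 0 h and 4.13, 4.13 and 3.01 CPM at 4 h. All values at 4 h were higher (log2 fold change 0.61, SE 0.237, 95% interval 0.11 to 1.12, edgeR quasi-likelihood adjusted p = 0.9998). The other was sirt1.S, described above. Enzymes wholly above extract 0 h numbered 6 (3.73%) and wholly below 2 (3.33%). The interaction of stimulus and time, which tests whether the change from 0 h to 4 h differed between extract and ATP, counted 0 enzymes at either threshold (0% and 1.37% of all genes).

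The direct comparison of the stimuli immediately after exposure held the most enzymes that separated by group. Of the 100, 19 lay wholly above ATP 0 h at extract 0 h and 3 wholly below, against 7.68% and 6.89% of all genes. Among the 19 were 10 of the 16 activating methyltransferases, namely both copies of dot1l, kmt2c, kmt2d, kmt2e and setd2. Dot1l.S had 81.3, 110 and 118 CPM at extract 0 h and 76.0, 65.2 and 65.5 CPM at ATP 0 h. Its log2 fold change was 0.58 (SE 0.231). Kdm6b.S had 168, 213 and 222 CPM against 142, 105 and 107 CPM, a log2 fold change of 0.77 (SE 0.352). Hdac2.L went the other way, with 10.4, 10.3 and 8.78 CPM against 12.2, 13.2 and 14.2 CPM (log2 fold change -0.42, SE 0.145). No enzyme passed the edgeR quasi-likelihood test here, the smallest adjusted p being 0.742 (0% of all genes called), and 9 had an unadjusted p under 0.05 (5.2% of all genes), 7 higher (3.32%) and 2 lower (1.88%). Without extract 0 h replicate 1 that count was 15, and without replicate 2 or 3 it was 2 or 3. Without ATP 0 h replicate 2 or 3 it was 4, and with the replicate number as a block it was 14. Fitting only these 2 groups gave 21, and adding 3 surrogate variables gave 1. In none of these other fits was the share of all genes counted.

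The activating methyltransferases as a class summed to 1520, 1700 and 1780 CPM at extract 0 h and to 1400, 1170 and 1220 CPM at ATP 0 h, with no overlap. In Ctrl the sum was 1410, 1190 and 1660 CPM, which overlapped with both. Kmt2c, kmt2d and dot1l weigh most in it: both copies together averaged 486, 359 and 310 CPM over all libraries. Sums without these pairs were not taken. Fitted fold changes were positive for 16 of 16 genes at extract 0 h against ATP 0 h (median log2 0.35) and against Ctrl (median 0.21), and for 1 of 16 at ATP 0 h against Ctrl (median -0.16), while the median of all genes was at most 0.01 from 0. Between the stimuli at 0 h, 11 of 13 acetyltransferases (median 0.17) and 4 of 4 TET genes (median 0.2) were also positive. So were 8 of 15 hdac genes, 5 of 11 sirtuins, 8 of 13 repressive-mark genes and 12 of 20 demethylases. Of the other SETD genes 2 of 6 were positive, and of the dnmt genes 0 of 2. The 16 genes share libraries, so they are not independent observations, and none passed the test. Their class was drawn up with earlier results of these data known, and following it through other fits was not planned. Without Ctrl replicate 2 the median at extract 0 h against Ctrl was 0.09, with 13 of 16 positive, and without Ctrl replicate 3 it was 0.32. At ATP 0 h against Ctrl the median without Ctrl replicate 3 was -0.05, with 5 of 16 positive. Leaving out any library of the extract 0 h or ATP 0 h groups kept 15 or 16 positive between the stimuli. With the replicate number as a block the median between the stimuli was 0.38, with 16 of 16 positive. In the log2 CPM that the authors adjusted for surrogate variables it was 0.12, with 15 of 16 positive. With 3 surrogate variables as covariates on the counts it was -0.01, with 7 of 16 positive. In that last fit the median was -0.01 at extract 0 h against Ctrl, with 5 of 16 positive, and -0.02 at ATP 0 h against Ctrl, with 7 of 16 positive. Its covariates were estimated from the same libraries, so they may hold part of the pattern itself. The ribosomal share was 38.2%, 21.9% and 34.9% at extract 0 h and 28.2%, 35.2% and 43.3% at ATP 0 h, while muscle and mesoderm markers summed to between 8.22 and 23.8 CPM and between 8.73 and 80.2 CPM. The part of either was not tested.

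At 4 h single libraries set the sums of this class. They were 2020, 1940 and 1270 CPM after extract and 2100, 1200 and 1340 CPM after ATP, so the groups overlapped with each other and with Ctrl. Between ATP 4 h and ATP 0 h the 16 genes had positive fold changes with a median of 0.29, which was 0.04, with 9 of 16 positive, without ATP 4 h replicate 1. Between the stimuli at 4 h the median was 0.14, with 16 of 16 positive, 0.41 without that library and 0.01, with 10 of 16 positive, without ATP 4 h replicate 2. With surrogate variables as covariates the median was -0.01 between the ATP times, with 8 of 16 positive, and -0.03 between the stimuli at 4 h, with 6 of 16 positive. In the values adjusted by the authors it was 0.08 in both comparisons, with 10 of 16 positive between the ATP times and 14 of 16 between the stimuli. At 4 h 1 enzyme had an unadjusted p under 0.05 between the stimuli (4.28% of all genes, 1.32% higher and 2.96% lower after extract, and 0% past the adjusted threshold). This was kat2a.S, which encodes the acetyltransferase GCN5, with 8.73, 7.73 and 8.66 CPM after extract and 7.01, 6.64 and 5.2 CPM after ATP (log2 fold change 0.41, SE 0.166, edgeR quasi-likelihood adjusted p = 0.9998). Enzymes wholly higher after extract numbered 3 (3.64%) and wholly lower 5 (5.5%). The next smallest p was that of kmt5a.L, an H4 lysine 20 methyltransferase, with 11.1, 11 and 11.9 CPM after extract and 9.45, 10 and 8.63 CPM after ATP, also without overlap. Without ATP 4 h replicate 1 the count at an unadjusted p under 0.05 was 20, and without extract 4 h replicate 3 it was 10. What share of all genes these 2 fits counted was not taken, so neither count is read as a result about the enzymes.

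The TET genes summed to 487, 496 and 602 CPM in Ctrl, 492, 640 and 628 CPM at extract 0 h and 475, 468 and 548 CPM at ATP 0 h. Tet2.L had 213, 194 and 257 CPM in Ctrl, 222, 287 and 277 CPM at extract 0 h, 277, 265 and 222 CPM at extract 4 h, 199, 199 and 231 CPM at ATP 0 h, and 319, 186 and 214 CPM at ATP 4 h. All stimulated groups overlapped with Ctrl. Over all libraries tet2.S lay between 100 and 163 CPM, tet3.L between 102 and 127 CPM and tet3.S between 60.8 and 76.3 CPM.

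The test for any difference among the 5 groups called 0 enzymes (0.0208% of all genes), and 5 had an unadjusted p under 0.05 (6.48% of all genes). These were hdac4.L, hdac5.S, kmt2e.S, kmt2e.L and hdac2.L, and their adjusted p-values in edgeR's quasi-likelihood test ran from 0.663 to 0.768. The count was 15 without extract 4 h replicate 3, 11 without ATP 4 h replicate 1 and 1 without ATP 0 h replicate 2, again without the share of all genes.

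Both copies of 37 enzymes were measured, which allowed the balance between .L and .S to be followed. Copies share sequence, so the assignment of reads by RSEM is uncertain where they are alike, and shares are of reads, not per length. The .L copy took over 50% of the reads in all 15 libraries in 21 pairs (56.8%, against 46.3% of 5615 pairs in the table), and the .S copy in 8 pairs (21.6% against 27.9%). A mean .L share above 75% or below 25% was found in 4 enzyme pairs (10.8%) and in 26.5% of all pairs, a difference that was not tested.

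Ezh2 was the most one-sided pair, with 92% of its reads on ezh2.L (range 89.4% to 94.4%). Kdm1a, the H3 lysine 4 demethylase LSD1, leaned the other way, with 23% on kdm1a.L (21.1% to 26%). Kdm2b (76.3%) and hdac5 (75.6%) were the other pairs past those limits, and kat7 (31.3%) and hdac4 (33.5%) followed kdm1a on the .S side. Some pairs held a nearly constant balance: the .L share of kmt2c was 58.5% ± 0.682 (SD over 15 libraries), although the level of both copies varied 1.93-fold between libraries.

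**Figure D5:**
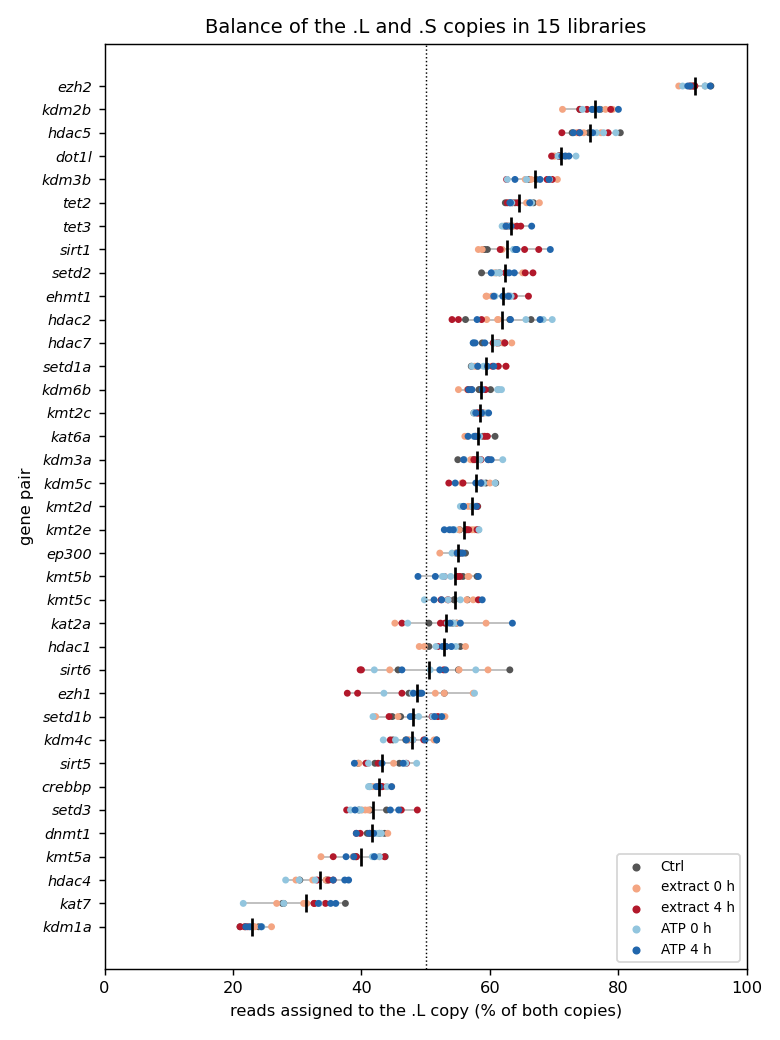
Share of each pair's reads assigned to the .L copy (horizontal axis, percent) in the 15 libraries, for 37 enzyme pairs ordered by their mean. Points are libraries coloured by group and black ticks the mean of all libraries. Ezh2 stands apart at 92% and kdm1a at 23%, and within most pairs the groups lie on top of each other.

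No pair changed its balance between groups in limma's test on the log2 ratio of the copies (0 of 37; 0% of 5618 pairs), and 4, or 10.8%, had an unadjusted p under 0.05 (5.34% of all pairs). Sirt1 had the smallest (adjusted p = 0.829 by limma), with a sirt1.L share of 59%, 59.6% and 59.2% in Ctrl and 63.7%, 63.8% and 63.7% at ATP 0 h. Those 2 groups did not overlap. For hdac2 (adjusted p = 0.846 by limma) the .L share was 65.6%, 69.7% and 68.3% at ATP 0 h and 54.1%, 55.1% and 58.7% at extract 4 h, also without overlap, while Ctrl spanned 56.2% to 66.4%. The others were ezh1 (adjusted p = 0.876 by limma) and hdac4 (adjusted p = 0.877 by limma).

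Partner genes of the same complexes were read from 8 lists. In each comparison 0 of their genes were called by edgeR's quasi-likelihood test. The lists held 44 Polycomb partners, 22 partners of the KMT2 complexes, 45 corepressor subunits, 58 partners of acetyltransferases, 36 other histone and arginine methyltransferases, 29 other demethylases and DNA methylation factors, 49 readers of histone marks and 44 SWI/SNF remodeller subunits. For the KMT2 partners the sum lay between 383 and 452 CPM in the 15 libraries, and their median log2 fold change between extract 0 h and ATP 0 h was -0.08, with 9 of 22 positive. Readers of histone marks had a median of 0.12 there, with 35 of 49 positive, and SWI/SNF subunits 0.15, with 28 of 44 positive, where 48.7% of all genes were positive. Positive in the same comparison were 40 of 58 acetyltransferase partners (median 0.06), 27 of 45 corepressor subunits, 25 of 44 Polycomb partners and 17 of 29 other demethylases and DNA methylation factors. The other histone and arginine methyltransferases had 14 of 36 positive (median -0.04). Of 46 cell cycle genes, also 0 were called, and between ATP 4 h and ATP 0 h 37 had negative fold changes (median -0.15), where 49.7% of all genes were positive. Between extract 0 h and ATP 0 h 37 were also negative (median -0.1). Against Ctrl, 35 were negative at each of extract 0 h, extract 4 h and ATP 4 h (medians -0.06, -0.14 and -0.12). At ATP 0 h against Ctrl 17 were negative (median 0.02).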

How the data were processed

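The authors deposited expected counts per gene from RSEM, per the file headers, for 15 stranded, ribosomal RNA-depleted single-end libraries. The submitters' processing notes also name fastp, STAR and limma. Versions, genome build and annotation are not given in the sources used here, so no coordinates are printed. Of the expected counts, 69.1% were whole (tolerance 1e-06). The authors also deposited log2 CPM adjusted for surrogate variables, used here as an alternative.

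Expected counts were rounded, filtered with filterByExpr (24052 genes kept) and scaled with TMM. EdgeR 4.0.16 (R 4.3.3) fitted a robust quasi-likelihood model with 1 coefficient per group over all libraries. Tests were two-sided and adjusted over all genes. Standard errors are the log2 fold change over the square root of F. Principal components used log2 CPM with a prior count of 2, centred per gene and not scaled to equal variance. Copy balance was tested with limma 3.58.1 on the log2 ratio with 0.5 added per copy. Scripts were checked on simulated data. Ribosomal RNA genes (375) came from a RefSeq table of the assembly Xenopus_laevis_v10.1.

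The members, classes and lists were chosen with earlier results of these data known. By rule, the text names the 2 members with the smallest p per comparison (4 in the overall test), the 2 with the most reads in Ctrl per class (the rule asked for reads per coding length, which was not at hand), all dnmt, tet and ezh genes, the most biased pairs and the 2 with the smallest balance p. Other members, among them kmt2d, setd2, kdm3a.L and the genes with extreme loadings, were singled out after their values were known.

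Sample titles carry replicate numbers. Same-numbered libraries had deviations from their group means that correlated above 0.1 for all 3 numbers in 5 of 10 group pairs (lowest 0.158, highest 0.494), which met the criterion for pairing. These were Ctrl with extract 0 h, with ATP 0 h and with ATP 4 h, extract 0 h with ATP 0 h, and ATP 0 h with ATP 4 h. Each of them is a comparison tested above. The main model has no block, so the standard errors, intervals and p-values above leave this pairing out. The block is an alternative. In the other group pairs the lowest correlation reached at most 0.0621. Alternatives comprised a replicate block, DESeq2 1.42.0, limma-voom, RLE scaling, no filter, removal of ribosomal RNA genes, fits of the compared groups alone, surrogate variables from sva 3.50.0, the authors' adjusted table, summed copies, extract 4 h replicates 1 and 2 summed, and each library left out.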

Additional observations from a re-analysis of the deposited data

How the results depend on the processing

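The count of enzymes called stayed at 0 in every comparison under all alternatives run except the authors' adjusted table, including the 75 pairings of a comparison with a left-out library (lowest 0, highest 0), DESeq2 and limma-voom. With the replicate number as a block the count was also 0 in all 10 comparisons, and the copy balance kept 0 calls in 18 alternatives, the replicate block included. In the authors' adjusted table, tested with limma, 3 enzymes were called at extract 4 h against Ctrl (ezh1.S, kmt2c.S and kmt2e.S), 1 at ATP 4 h against Ctrl (kmt2e.S), 1 between the extract times (ezh1.S), 4 between the ATP times (hdac4.L, hdac5.S, kmt2e.S and sirt1.L), 1 between the stimuli at 4 h (setd2.L) and 9 in the overall test. That table had surrogate variables removed before deposit, which the test cannot count. In the overall test it called 2533 of its 28009 genes, beside 9 of 101 enzymes, where the counts called 5 genes. The highest count over all genes in any alternative was 1227 at extract 4 h against Ctrl and 287 at ATP 4 h against Ctrl. It was 187 between the extract times, 1170 between the ATP times and 634 between the stimuli at 4 h. These highest counts are taken over all alternatives, the authors' adjusted table included. They are therefore upper limits for that table and not its own share. Its enzyme calls in single comparisons are given here beside these limits only. None of its calls are read as particular to the enzymes. Hdac4.L between the ATP times had an adjusted p of 0.00738 there, whereas under the other alternatives it ran from 0.106 to 1, with log2 fold changes of 0.38 to 0.57 in all. Surrogate variables fitted as covariates on the counts called 0 enzymes. The 18 log2 fold changes of the members with the smallest p per comparison kept their sign in all alternatives run. These members were chosen for their small p in the same libraries, so a kept sign is no sign of stability. The activating methyltransferases were not chosen by p, but their class was drawn up with earlier results of these data known. They are therefore no unselected contrast to the members above. With surrogate variables, 5 of 16 of them were positive at extract 0 h against Ctrl, where the counts alone gave 16. Counts at an unadjusted p under 0.05 depended on single libraries: leaving out each in turn gave 0 to 19 at extract 4 h against Ctrl (19 without extract 4 h replicate 3, 0 without replicate 2, 1 without Ctrl replicate 1), 0 to 3 at extract 0 h against Ctrl, 1 to 7 at ATP 4 h against Ctrl, 2 to 11 between the ATP times (2 without ATP 4 h replicate 1, 11 without replicate 2) 0 to 5 between the extract times, 2 to 15 between the stimuli at 0 h, 0 to 20 between them at 4 h, 0 to 2 at ATP 0 h against Ctrl and 1 to 15 in the overall test. The share of all genes at that threshold was not counted in these fits. Depth limits members of few reads most: ezh1.S had 29 to 80 reads per library and hdac5.S 30 to 99.6.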
